A study of Homo sapiens with 30 samples.

Results

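Heterochromatin and KAP1 silencing factors are described here as 10 genes: ZFP57, TRIM28 (which encodes KAP1), SETDB1, SUV39H2, CBX5, CBX1, CBX3, MPHOSPH8, MORC2 and SMCHD1. They were chosen by symbol, as 10 of the 28307 genes that each table of counts lists. RNA was measured by stranded total RNA-seq in 30 libraries of H9, an established human embryonic stem (hES) cell line, in 10 groups of 3. Levels are given in CPM, the counts of a gene per 1000000 counts of its library, and library totals ran from 31190052 to 65637976 counts. For 9 of the 10 genes the counts were high enough to be tested, and ZFP57 did not pass the filter on low counts in any comparison.

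Most groups were naive cells grown in PXGL medium on mouse embryonic fibroblasts, a feeder layer. PXGL WT cells were unmodified, and XIST KO cells carried a homozygous XIST deletion and came from 1 clone. Per the study's methods their 3 libraries are technical replicates, so XIST KO is 1 biological sample. CRISPRi UT and CRISPRi Dox were naive clones with an inducible dCas9-KRAB repressor aimed at XIST, untreated or treated with doxycycline. Both CRISPRi groups therefore carry the transgene, and they differ by the drug and the induced repressor. In siScr, siSPEN1 and siSPEN2, naive PXGL cells received a scrambled siRNA or either of the siRNA mixes against SPEN, a cofactor of XIST. NaiveCult WT cells were unmodified naive cells converted with another medium, and XACT KO cells (written XACTKO in the labels) were NaiveCult cells with a deletion at XACT, in separate clones. Per the study's methods, naive cells of both media were grown on feeders. Primed WT cells were unmodified primed cells, grown on Matrigel without feeders. The libraries of the other 9 groups are described as biological replicates. Tests that include XIST KO use only technical spread in that group, and their p-values do not cover variation between cultures or clones there.

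KRAB zinc finger proteins, of which ZFP57 is one, bind DNA and recruit the corepressor TRIM28. TRIM28 in turn brings the histone methyltransferase SETDB1, which places the repressive mark H3K9me3, and HP1 proteins (encoded by CBX5, CBX1 and CBX3), which bind that mark. The HUSH complex, with its H3K9me3 reader MPHOSPH8 and the ATPase MORC2, and the noncanonical SMC protein SMCHD1, which acts on the inactive X chromosome, silence chromatin along related routes, and together these systems restrain transposable elements and imprinted genes in pluripotent cells.

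The targeted genes were as the labels say. XIST was at 0.177, 0.373 and 0.448 CPM in XIST KO against 898 to 901 CPM in PXGL WT, and in CRISPRi Dox at 6.52, 159 and 169.7 CPM against 642 to 698 CPM in CRISPRi UT. Doxycycline library 1 thus had far less XIST than the other two. SPEN was at 152 to 177 CPM in both knockdown groups and at 283.9 to 376 CPM in siScr. XACT was at 0 to 0.124 CPM in XACT KO and 1.14 to 2.17 CPM in NaiveCult WT. The summed level of 7 naive markers lay between 2232 and 2981 CPM in the 27 naive libraries and between 25.1 and 30.4 CPM in Primed WT, and 6 primed markers showed the opposite pattern, with 4594 to 4923 CPM in Primed WT and 52.1 to 145.6 CPM in naive libraries. The 2 NaiveCult groups carried higher sums of 5 trophectoderm markers than any other group, 121 to 188 CPM against 11.5 to 58.5 CPM. Of the 5 fibroblast markers, whose sum was 15.4 to 27.1 CPM in NaiveCult WT, 4.69 to 14.6 CPM in XACT KO, 56.9 to 63.0 CPM in Primed WT (nearly all COL1A2) and 2.87 to 6.24 CPM in the PXGL groups, COL3A1 and LUM were at 8.90 to 16.3 and 2.97 to 6.35 CPM in NaiveCult WT and at 0.289 CPM or less in the PXGL groups and Primed WT. These values move with each NaiveCult result below, and their part in those results was not tested.

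The level of CBX5 differed most between the groups, and its sequence context is shown with that of SUV39H2, because these were the genes lower in both naive wild-type groups than in Primed WT by more than 1 on the log2 scale. CBX5 (ENSG00000094916.16) lies on the minus strand of chromosome 12, from 54230942 to 54280133 on hg38, and encodes HP1α. RefSeq gives it separate starts, and the 300 bases around 2 of them follow (250 before and 50 after the start, strand as transcribed, GRCh38.p14), with each CG dinucleotide in capitals. CG reads the same on both strands.
CBX5 upstream start, chr12:54280073-54280372, minus strand: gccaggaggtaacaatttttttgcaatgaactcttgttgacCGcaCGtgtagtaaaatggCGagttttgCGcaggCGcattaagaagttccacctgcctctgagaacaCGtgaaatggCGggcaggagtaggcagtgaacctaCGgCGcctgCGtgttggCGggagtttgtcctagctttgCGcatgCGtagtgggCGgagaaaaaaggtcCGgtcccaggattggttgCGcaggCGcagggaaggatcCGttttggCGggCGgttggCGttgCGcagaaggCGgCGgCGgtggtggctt
CBX5 downstream start, chr12:54259537-54259836, minus strand: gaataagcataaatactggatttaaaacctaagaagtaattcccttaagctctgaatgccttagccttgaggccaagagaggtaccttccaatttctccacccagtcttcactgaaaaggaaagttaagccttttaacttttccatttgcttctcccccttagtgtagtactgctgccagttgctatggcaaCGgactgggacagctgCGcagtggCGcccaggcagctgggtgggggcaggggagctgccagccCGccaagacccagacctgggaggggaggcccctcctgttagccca
SUV39H2 start, chr10:14878616-14878915, plus strand: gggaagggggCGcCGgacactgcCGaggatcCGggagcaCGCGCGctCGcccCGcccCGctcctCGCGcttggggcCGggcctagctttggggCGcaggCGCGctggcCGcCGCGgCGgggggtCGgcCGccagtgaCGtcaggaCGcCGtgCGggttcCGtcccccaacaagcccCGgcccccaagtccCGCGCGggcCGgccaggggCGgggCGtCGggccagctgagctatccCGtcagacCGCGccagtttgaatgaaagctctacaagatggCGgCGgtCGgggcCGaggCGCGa
The upstream CBX5 window holds 25 CG dinucleotides and the downstream one 4, while the SUV39H2 window holds 44. Among the 34943 distinct RefSeq windows of this length, 31.9% hold at least 25, 75.4% at least 4 and 4.19% at least 44, and 96.0% hold 1 or more. Promoter entries matched 9 of the 10 genes, TRIM28 being the one without an entry. The counts are per gene, so they do not say which CBX5 start was used.

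CBX5 was high in primed cells and low in every naive library. It was at 1650.4, 1743 and 1749 CPM in the Primed WT libraries. In PXGL WT it was at 165.3, 156 and 163 CPM and in NaiveCult WT at 135, 182 and 141 CPM. The 27 naive libraries ranged from 111 to 342 CPM, so every naive library lay below every primed one. In order of their mean CBX5 level the groups ran Primed WT, CRISPRi Dox, siSPEN2, siSPEN1, siScr, CRISPRi UT, XIST KO, PXGL WT, NaiveCult WT and XACT KO, and of these neighbours only PXGL WT and NaiveCult WT overlapped. The log2 fold change was -3.33 in NaiveCult WT against Primed WT (SE 0.105 and edgeR adjusted p = 4.1e-10) and -3.20 in PXGL WT against Primed WT (SE 0.0436 and edgeR adjusted p = 3.1e-13). In bulk RNA, fewer cells that make a transcript and less of it per cell cannot be told apart. PXGL WT and NaiveCult WT did not differ by this test (log2 fold change 0.13, SE 0.0899 and edgeR adjusted p = 0.20). That value depended on the second NaiveCult WT library, which had the highest CBX5 of its group: without it the log2 fold change was 0.28 (edgeR adjusted p = 9.2e-07). Medium, feeders and cell state cannot be told apart in the comparison of PXGL WT or NaiveCult WT with Primed WT. The file names of PXGL WT also carry codes other than those of Primed WT and NaiveCult WT. The sources used here do not state what these codes mean. Code and medium therefore cannot be told apart in PXGL WT against NaiveCult WT. These limits hold for each gene below.

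The other HP1 genes moved far less between states. CBX1, which encodes HP1β, was at 367, 348 and 376 CPM in Primed WT and at 279, 286.9 and 279.9 CPM in PXGL WT, with no overlap. In NaiveCult WT it was at 392, 399 and 401 CPM, above both. Its log2 fold changes against Primed WT were -0.16 in PXGL WT (SE 0.0409 and edgeR adjusted p = 0.0040) and 0.29 in NaiveCult WT (SE 0.0468 and edgeR adjusted p = 0.00016). The PXGL WT call was lost without PXGL WT library 1 or 3 (-0.11 in both, edgeR adjusted p = 0.069 and 0.065). CBX3, which encodes HP1γ, had its lowest group mean in Primed WT, with libraries at 278, 269 and 285.03 CPM. It was at 328, 332 and 329.5 CPM in PXGL WT and 402, 398 and 397 CPM in NaiveCult WT. CBX3 was thus higher in naive cells in both comparisons, with log2 fold changes of 0.46 (SE 0.0368 and edgeR adjusted p = 3.8e-07) and 0.69 (SE 0.0441 and edgeR adjusted p = 9.9e-08). GENCODE names 10 pseudogenes of CBX3, 5 of CBX1 and 1 of CBX5, and reads shared with near-identical copies make these levels uncertain. The one such row in the tables, CBX3P2, held 0.239% as many counts as CBX3.

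Per kilobase of exon, CBX5 made up 39.2% ± 1.23 (SD, n = 3) of the summed level of the HP1 genes in Primed WT. It made up 6.27% ± 0.241 (SD, n = 3) in PXGL WT and 4.54% ± 0.713 (SD, n = 3) in NaiveCult WT. CBX1 made up 41.1% in Primed WT, where its range over libraries overlapped that of CBX5, and 54.0% in PXGL WT and 58.5% in NaiveCult WT. CBX3 made up 19.7%, 39.7% and 36.96% in the same order. The exon length is the union over all annotated transcripts, which for CBX5 is 15038 bases, and transcripts shorter than that union give lower values per kilobase.

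**Figure D1:**
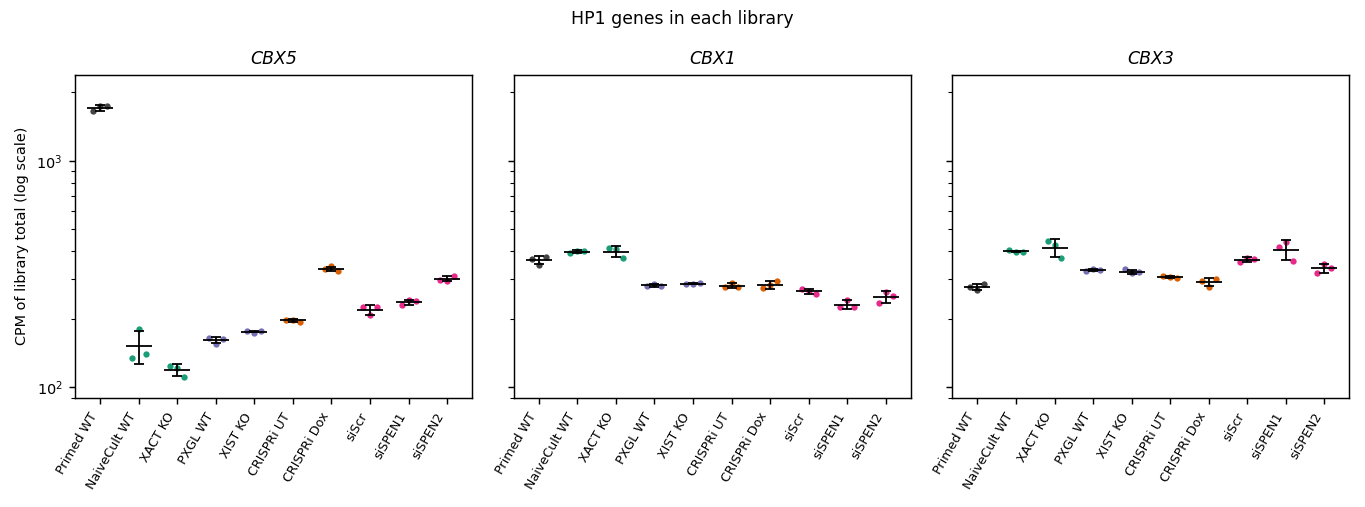
Levels of the HP1 genes CBX5, CBX1 and CBX3 in CPM of the library total on a log axis, with 1 point per library, and the mean and SD of each group of 3 as black bars. The Primed WT points of CBX5 lie between 1650.4 and 1749 CPM, above all naive points, while CBX1 and CBX3 stay between 226 and 442 CPM in every group.

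SUV39H2 (ENSG00000152455.16, chromosome 10, 14878820 to 14904315, plus strand), an H3K9 methyltransferase of constitutive heterochromatin, was likewise highest in Primed WT, at a lower level, while its order among the naive groups differed from that of CBX5 and most neighbours there overlapped. It was at 69.4, 75.6 and 74.5 CPM in Primed WT, and the 27 naive libraries lay between 23.6 and 33.7 CPM. PXGL WT had 30.7, 28.6 and 30.1 CPM and NaiveCult WT 31.5, 31.8 and 30.7 CPM. The log2 fold change was -1.08 in PXGL WT (SE 0.0495 and edgeR adjusted p = 2.9e-09) and -1.06 in NaiveCult WT (SE 0.0561 and edgeR adjusted p = 2.2e-08). Between the naive media the difference was -0.03 (SE 0.054 and edgeR adjusted p = 0.68).

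SETDB1 (ENSG00000143379.13, chromosome 1, 150926263 to 150964744, plus strand), the methyltransferase recruited by TRIM28, varied least of the tested genes, its highest group mean being 1.37 times the lowest. It was at 87.7, 80.7 and 86.1 CPM in Primed WT, 78.0, 74.0 and 75.8 CPM in PXGL WT and 80.0, 75.0 and 79.4 CPM in NaiveCult WT. Neither naive group passed the test against Primed WT, with log2 fold changes of 0.05 (SE 0.0461 and edgeR adjusted p = 0.31) and 0.04 (SE 0.0568 and edgeR adjusted p = 0.48). The sign here rests on the scaling. With library totals in place of TMM factors, which centre the bulk of genes, the median of all genes was shifted by -0.21 in PXGL WT against Primed WT and by -0.16 in NaiveCult WT against Primed WT, and SETDB1 was lower in PXGL WT (log2 fold change -0.16, edgeR adjusted p = 0.0069).

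TRIM28 (ENSG00000130726.12, chromosome 19, 58544064 to 58550722, plus strand) separated the PXGL cells from all others. It was at 985, 1039 and 999 CPM in PXGL WT, at 599, 604 and 563 CPM in Primed WT and at 595, 553 and 581 CPM in NaiveCult WT. The 21 PXGL libraries lay between 859.6 and 1218 CPM, and the 6 NaiveCult and XACT KO libraries between 553 and 697 CPM. The log2 fold change of PXGL WT was 0.99 against Primed WT (SE 0.0474 and edgeR adjusted p = 4.5e-09) and 0.85 against NaiveCult WT (SE 0.0455 and edgeR adjusted p = 3.5e-09). NaiveCult WT and Primed WT overlapped. Their log2 fold change of 0.13 (SE 0.0527 and edgeR adjusted p = 0.037) did not hold: it lost the call without either of 2 Primed WT libraries (2 and 3) or 2 NaiveCult WT libraries (1 and 3), was 0.09 without Primed WT library 3 and was -0.031 with library totals (edgeR adjusted p = 0.56). Per kilobase of exon TRIM28 was the most abundant of the 10 genes in each of these groups, at 234 ± 6.45 CPM per kilobase in PXGL WT and 137 ± 5.24 in Primed WT (SD, n = 3).

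MORC2 (ENSG00000133422.14, chromosome 22, 30925130 to 30968774, minus strand) was low in the NaiveCult cells only among the groups measured. It was at 33.9, 25.5 and 36.3 CPM in NaiveCult WT, at 79.3, 87.8 and 84.6 CPM in Primed WT and at 86.9, 80.6 and 85.2 CPM in PXGL WT. The NaiveCult libraries lay below all the others, which spanned 74.8 to 115 CPM in the 21 PXGL libraries. The log2 fold change was -1.23 in NaiveCult WT against Primed WT (SE 0.110 and edgeR adjusted p = 1.5e-06) and 1.45 in PXGL WT against NaiveCult WT (SE 0.0935 and edgeR adjusted p = 2.2e-08). PXGL WT overlapped with Primed WT: the log2 fold change of 0.22 (SE 0.0465 and edgeR adjusted p = 0.0011) fell to 0.01 with library totals (edgeR adjusted p = 0.90). MPHOSPH8 (ENSG00000196199.14, chromosome 13, 19633659 to 19673441, plus strand) moved the other way in NaiveCult WT against Primed WT. It also did so in PXGL WT against NaiveCult WT, where its log2 fold change was -0.40 (edgeR adjusted p = 6.5e-06). It was at 59.4, 62.1 and 66.5 CPM in Primed WT, 81.7, 77.8 and 84.5 CPM in PXGL WT and 117, 104 and 112 CPM in NaiveCult WT, with no overlap between any pair of these groups. Its log2 fold changes against Primed WT were 0.59 in PXGL WT (SE 0.0487 and edgeR adjusted p = 5.2e-07) and 0.99 in NaiveCult WT (SE 0.061 and edgeR adjusted p = 7.2e-08).

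SMCHD1 (ENSG00000101596.17, chromosome 18, 2655726 to 2805017, plus strand) was at 153, 159 and 152 CPM in Primed WT, 138, 134 and 136 CPM in PXGL WT and 172, 173 and 172 CPM in NaiveCult WT. It was higher in NaiveCult WT than in Primed WT (log2 fold change 0.32, SE 0.0458 and edgeR adjusted p = 7.2e-05) and lower in PXGL WT than in NaiveCult WT (-0.29, SE 0.037 and edgeR adjusted p = 1.3e-05). Against Primed WT the PXGL value was 0.02 (SE 0.0368 and edgeR adjusted p = 0.53), and with library totals it was -0.19 (edgeR adjusted p = 0.00060).

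Counted over the genes, 8 of 9 passed an adjusted p of 0.05 in NaiveCult WT against Primed WT, 5 higher and 3 lower, where 84.6% of all genes tested passed. In PXGL WT against Primed WT 7 of 9 passed, 4 higher and 3 lower, against 88.7% of all genes, and in PXGL WT against NaiveCult WT 6 of 9 passed, 2 higher and 4 lower, against 76.8%. With a log2 fold change above 1 or below -1 as well, 3 passed in NaiveCult WT against Primed WT (CBX5, MORC2 and SUV39H2, all lower) against 49.4% of all genes. The same threshold left 2 in PXGL WT against Primed WT (CBX5 and SUV39H2) against 54.7%, and 1 in PXGL WT against NaiveCult WT (MORC2, higher) against 27.6%. The shares of the 9 genes that passed were thus near or below those of all genes in these comparisons. The median absolute log2 fold change of the 9 genes was 0.69, 0.46 and 0.29 in these comparisons, where that of all genes was 0.99, 1.16 and 0.57.

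**Figure D2:**
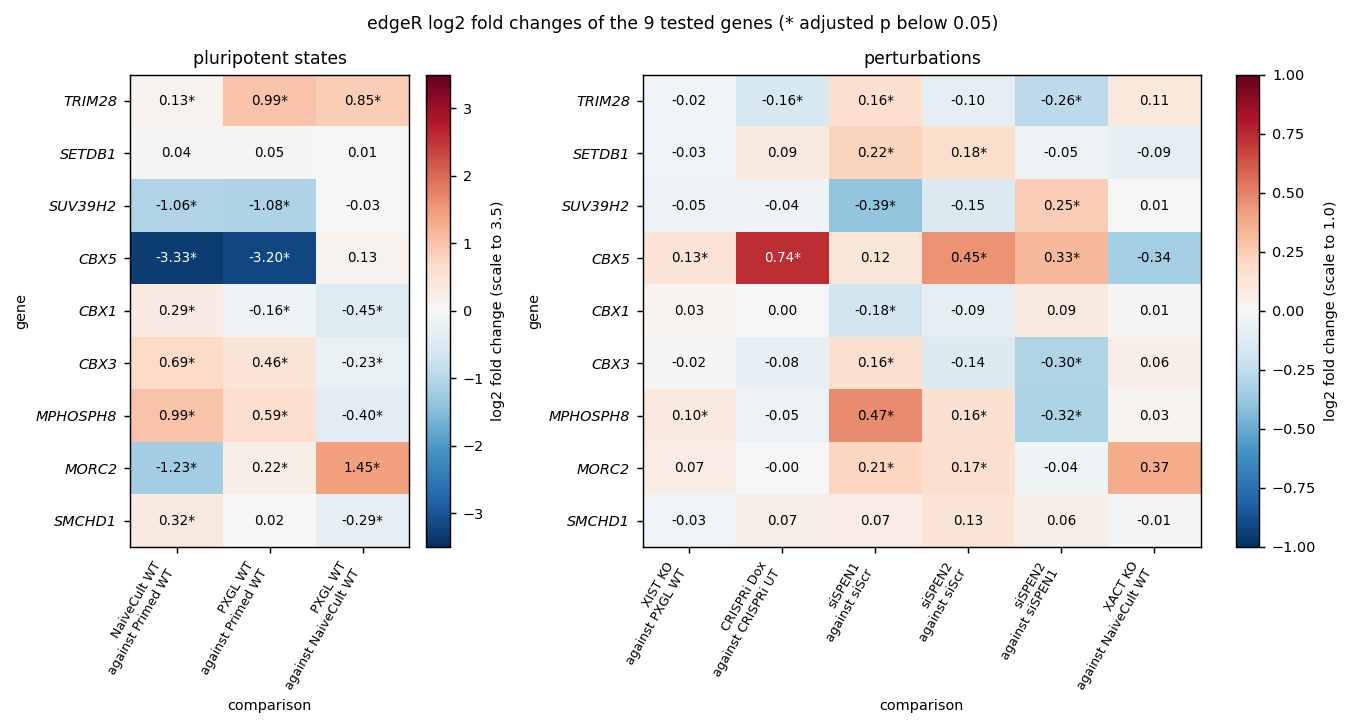
edgeR log2 fold changes of the 9 tested genes (rows) in 9 comparisons (columns), with comparisons of cell states on the left and of perturbations on the right, drawn on separate colour scales, and an asterisk where the adjusted p is below 0.05. CBX5 has the largest values in the state comparisons (-3.33 and -3.20) and after doxycycline (0.74), and no gene carries an asterisk in XACT KO against NaiveCult WT.

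XIST was deleted in XIST KO and lowered to differing degrees in the CRISPRi Dox libraries, and CBX5 was the one tested gene that was higher in both. In XIST KO 2 of 9 genes passed, both higher, against 25.9% of all genes. CBX5 was at 177, 174 and 177 CPM in XIST KO and at 165.3, 156 and 163 CPM in PXGL WT. The groups did not overlap, and the log2 fold change was 0.13 (SE 0.0241 and edgeR adjusted p = 0.00023). The control groups CRISPRi UT and siScr had higher mean CBX5 than XIST KO, at 198 and 220 CPM against 176 CPM. Those differences were not tested. MPHOSPH8 was at 85.6, 88.3 and 86.5 CPM against 81.7, 77.8 and 84.5 CPM, a log2 fold change of 0.10 (SE 0.0277 and edgeR adjusted p = 0.011), which was not called without XIST KO library 2 (0.09, edgeR adjusted p = 0.062). The other 7 genes had values between -0.05 and 0.07. When the spread was estimated from all 30 libraries neither gene was called (edgeR adjusted p = 0.32 for CBX5 and 0.26 for MPHOSPH8). The 3 XIST KO libraries are technical replicates of 1 clone, and the spread in this comparison was the smallest of all, with a common biological coefficient of variation of 0.0254 against 0.0554 to 0.0947 in the other fits of 2 or 3 groups. The summed level of the trophectoderm markers was 42.5 to 45.9 CPM in XIST KO and 54.9 to 58.5 CPM in PXGL WT, and its part in these results was not tested.

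After doxycycline 2 of 9 genes passed against 31.6% of all genes. CBX5 rose from 199, 199 and 195 CPM in CRISPRi UT to 332, 342 and 326 CPM in CRISPRi Dox. That is a 1.67-fold difference (log2 fold change 0.74, SE 0.0397 and edgeR adjusted p = 8.5e-08), and it was 0.72 to 0.75 on the log2 scale under all 12 alternatives tried. TRIM28, the corepressor through which KRAB domains act, was at 911, 859.6 and 875 CPM in CRISPRi Dox against 945, 989 and 992 CPM in CRISPRi UT. Its log2 fold change of -0.16 (SE 0.0418 and edgeR adjusted p = 0.011) lost the call without CRISPRi UT library 2 (-0.15, edgeR adjusted p = 0.078) or library 3 (-0.15, edgeR adjusted p = 0.061), and with all 30 libraries in 1 fit (edgeR adjusted p = 0.052). SETDB1 (0.09), SMCHD1 (0.07), SUV39H2 (-0.04), CBX1 (0.0014), CBX3 (-0.08), MPHOSPH8 (-0.05) and MORC2 (-0.0021) did not pass, with log2 fold changes as given, but CBX3 passed without CRISPRi Dox library 3 (-0.12, edgeR adjusted p = 0.045). The sum of the 7 naive markers was 2241 to 2388 CPM in CRISPRi Dox and 2616 to 2730.3 CPM in CRISPRi UT, and that of 4 hypoblast markers 29.8 to 37.3 and 22.1 to 24.0 CPM. The part of these shifts in the results was not tested.

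The difference between the effects of XIST deletion and doxycycline was tested in 1 fit of the 12 libraries. It passed for 1 of 9 genes against 21.8% of all genes. For CBX5 the XIST KO effect minus the doxycycline effect was -0.62 (SE 0.044 and edgeR adjusted p = 5.9e-09), so the rise after doxycycline was the larger. For TRIM28 it was 0.13 (SE 0.0539 and edgeR adjusted p = 0.094) and for MPHOSPH8 0.14 (SE 0.056 and edgeR adjusted p = 0.082). TRIM28 passed without CRISPRi Dox library 1 or PXGL WT library 2 (0.15 and 0.17), MPHOSPH8 without CRISPRi Dox library 2 (0.17) and SETDB1 without CRISPRi Dox library 3 (-0.18). No gene passed the fold threshold of 1 in XIST KO, CRISPRi Dox or the difference between them, where 1.54%, 3.45% and 2.88% of all genes did.

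**Figure D3:**
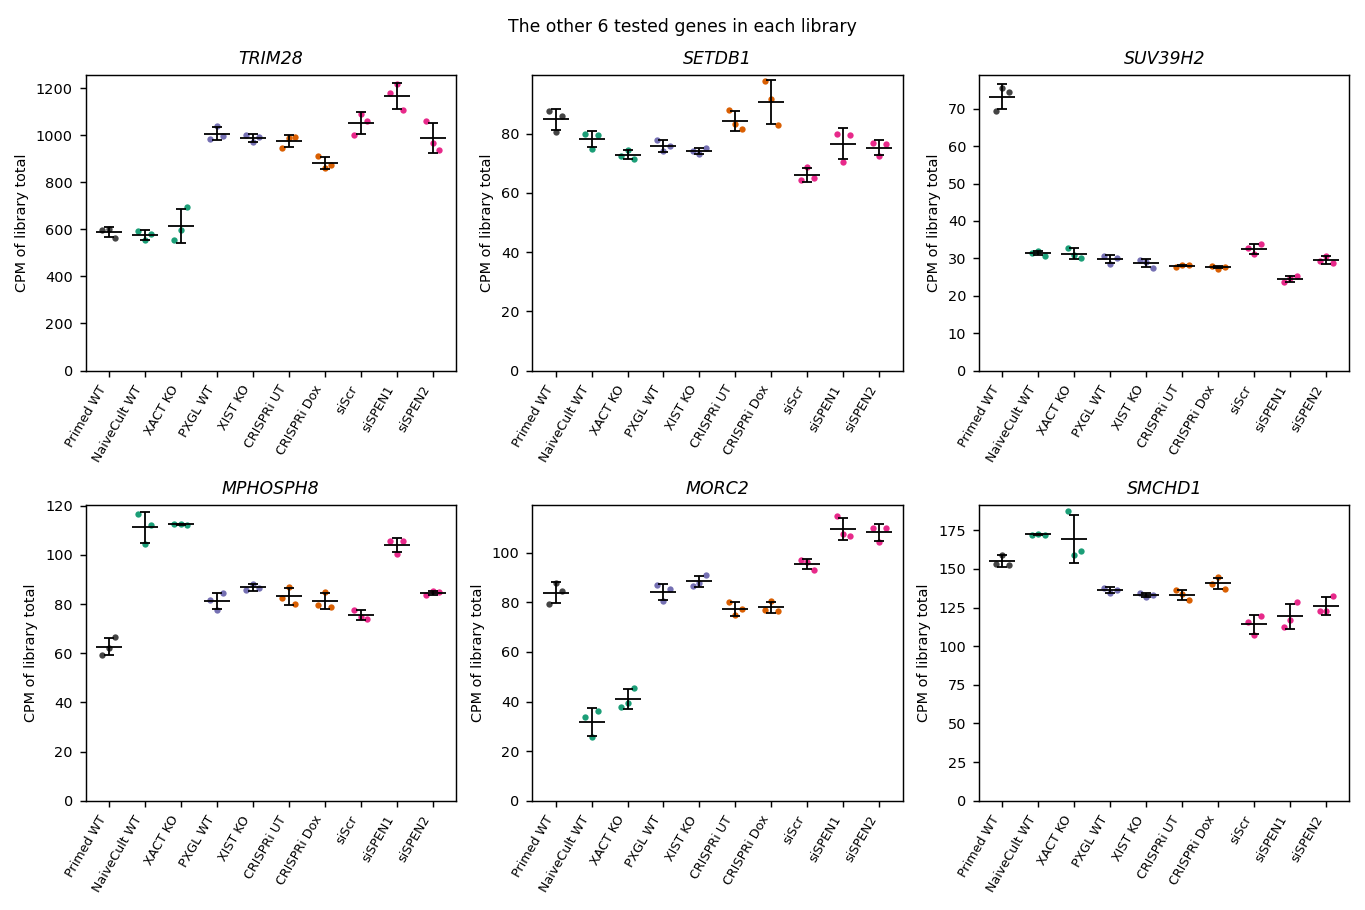
Levels of TRIM28, SETDB1, SUV39H2, MPHOSPH8, MORC2 and SMCHD1 in CPM of the library total on linear axes from 0, with 1 point per library and the mean and SD of each group of 3 as black bars. TRIM28 is at 859.6 CPM or more in all PXGL libraries and at 697 CPM or less elsewhere, SUV39H2 is at 69.4 CPM or more in Primed WT and at 33.7 CPM or less in naive libraries, and MORC2 is at 45.5 CPM or less in the NaiveCult WT and XACT KO libraries and at 74.8 CPM or more elsewhere.

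Both SPEN siRNA mixes were compared with the same siScr libraries, and MPHOSPH8, MORC2 and SETDB1 were higher with each. With siSPEN1 7 of 9 passed, 5 higher and 2 lower, against 43.7% of all genes, and with siSPEN2 4 of 9 passed, all higher, against 41.2%. None reached the fold threshold of 1 with either mix, where 5.08% and 4.24% of all genes did. The median log2 fold change of the 9 genes was 0.16 with siSPEN1 and 0.13 with siSPEN2, and that of all genes was close to 0 in both. Markers of other cell states moved with the knockdown. The sum of the 6 primed markers, of which 2 reached 1 CPM, was 134 to 137 CPM in siScr, 52.1 to 56.0 CPM in siSPEN1 and 63.0 to 63.4 CPM in siSPEN2. The sum of the 4 hypoblast markers, of which 3 reached 1 CPM, was 48.5 to 51.4, 39.5 to 41.5 and 28.7 to 32.4 CPM in the same order. The part of these markers in the SPEN results was not tested.

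MPHOSPH8 was at 77.7, 74.8 and 73.8 CPM in siScr, 106, 101 and 106 CPM in siSPEN1 and 83.8, 85.4 and 84.8 CPM in siSPEN2. Both knockdown groups lay above the control, with log2 fold changes of 0.47 (SE 0.0455 and edgeR adjusted p = 3.3e-08) and 0.16 (SE 0.0455 and edgeR adjusted p = 0.0089). The siScr libraries lay just below those of unmodified PXGL WT, 77.8 to 84.5 CPM for MPHOSPH8, which siSPEN2 overlapped and siSPEN1 exceeded. For MORC2, siScr lay above PXGL WT, which was at 80.6 to 86.9 CPM. These comparisons with PXGL WT were not tested. MORC2 was at 96.9, 96.2 and 93.0 CPM in siScr, 115, 108 and 107 CPM in siSPEN1 and 110.0, 104 and 110.1 CPM in siSPEN2. It was higher with both mixes, by 0.21 (SE 0.0496 and edgeR adjusted p = 0.0014) and 0.17 (SE 0.0494 and edgeR adjusted p = 0.0082) on the log2 scale, the latter not called with all 30 libraries in 1 fit (edgeR adjusted p = 0.055).

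SETDB1 was at 64.5, 68.8 and 65.1 CPM in siScr, its lowest group, and at 79.9, 70.5 and 79.5 CPM in siSPEN1 and 76.9, 72.4 and 76.5 CPM in siSPEN2. It differed from siScr by 0.22 (SE 0.0536 and edgeR adjusted p = 0.0019) and 0.18 (SE 0.0533 and edgeR adjusted p = 0.012) on the log2 scale, and the siSPEN2 call was lost without siScr library 1 (0.15, edgeR adjusted p = 0.051). The siScr level of SETDB1 also lay below that of the unmodified PXGL WT cells, 74.0 to 78.0 CPM, a comparison that was not tested. SUV39H2 was at 32.6, 31.1 and 33.7 CPM in siScr and fell to 23.6, 24.6 and 25.3 CPM in siSPEN1, its lowest group (log2 fold change -0.39, SE 0.0606 and edgeR adjusted p = 1.9e-05). In siSPEN2 it was at 29.4, 30.6 and 28.7 CPM, below siScr in all 3 libraries, but the log2 fold change of -0.15 did not pass (SE 0.0591 and edgeR adjusted p = 0.053), though it did without siScr library 2 (-0.18, edgeR adjusted p = 0.044) and with all 30 libraries in 1 fit (edgeR adjusted p = 0.030).

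Among the HP1 genes CBX5 was at 226, 208 and 226 CPM in siScr, 231, 242 and 239.5 CPM in siSPEN1 and 298, 296 and 311 CPM in siSPEN2. The siSPEN2 libraries were the highest, with a log2 fold change of 0.45 (SE 0.0495 and edgeR adjusted p = 3.3e-07), while siSPEN1 gave 0.12 (SE 0.0496 and edgeR adjusted p = 0.054), which passed under 5 of 13 alternatives. CBX1 was lower in siSPEN1 (226, 244 and 227 CPM against 272, 266 and 258 CPM, log2 fold change -0.18, SE 0.0514 and edgeR adjusted p = 0.0069), a call lost without siSPEN1 library 1 (edgeR adjusted p = 0.051). CBX3 was at 358, 374 and 368 CPM in siScr and 416, 439.6 and 361 CPM in siSPEN1, which overlap. The call for CBX3 (log2 fold change 0.16, SE 0.0631 and edgeR adjusted p = 0.048) was lost under 6 of 13 alternatives, among them the removal of any 1 of siScr libraries 1, 2 and 3 and siSPEN1 libraries 1 and 2 (0.09 without the last). TRIM28 was at 1002, 1093 and 1059.5 CPM in siScr and 1179, 1218 and 1107 CPM in siSPEN1. Its log2 fold change of 0.16 (SE 0.0582 and edgeR adjusted p = 0.027) was likewise lost without siScr library 1 or siSPEN1 libraries 1 or 2 (edgeR adjusted p = 0.058 to 0.13). SMCHD1 did not pass with either mix, with log2 fold changes of 0.07 and 0.13 (edgeR adjusted p = 0.30 and 0.062). The siSPEN2 value passed under 5 of 13 alternatives, among them the removal of siScr library 3 (0.18, edgeR adjusted p = 0.036). In siSPEN2, CBX3 (-0.14), TRIM28 (-0.10) and CBX1 (-0.09) did not pass (edgeR adjusted p = 0.082, 0.19 and 0.18). For CBX3 and TRIM28 the sign was opposite to that with siSPEN1. CBX3 lay at 319 to 349 CPM in siSPEN2, below siScr. It passed with no filter on low counts and with only the 6 libraries compared (edgeR adjusted p = 0.020 and 0.0098).

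Tested directly, siSPEN2 and siSPEN1 differed for 5 of 9 genes against 34.7% of all genes, and none by the fold threshold of 1, which 2.50% of all genes reached. CBX5 (0.33) and SUV39H2 (0.25) were higher with the second mix, and MPHOSPH8 (-0.32), CBX3 (-0.30) and TRIM28 (-0.26) were lower, all as log2 fold changes with edgeR adjusted p between 1.1e-05 and 0.0030. SPEN itself differed little between the mixes (-0.07, SE 0.076 and edgeR adjusted p = 0.52).

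No gene passed in the edgeR fit reported for XACT KO against NaiveCult WT, where 0.425% of all genes did, or 0.115% with the fold threshold. By an unadjusted edgeR p under 0.05 there were 2 of 9, beside 2992 of the 16472 genes tested. DESeq2 called 2, and its share over all genes was not counted. MORC2 was at 37.9, 39.4 and 45.5 CPM in XACT KO and 33.9, 25.5 and 36.3 CPM in NaiveCult WT, without overlap, and the log2 fold change was 0.37 (SE 0.113 and edgeR adjusted p = 0.11). CBX5 was at 125, 122 and 111 CPM against 135, 182 and 141 CPM, also without overlap, with a log2 fold change of -0.34 (SE 0.0971 and edgeR adjusted p = 0.095). These were the 2 that passed with DESeq2 (adjusted p = 0.035 and 0.025). Both also passed edgeR with no filter on low counts, with the replicate block and with all 30 libraries in 1 fit (edgeR adjusted p = 0.0014 to 0.036). CBX5 also passed without NaiveCult WT library 1 (-0.42, edgeR adjusted p = 0.030). Other alternatives gave weaker values. Over all 12, CBX5 ran from -0.42 to -0.19 and MORC2 from 0.24 to 0.46, with edgeR adjusted p up to 0.36 for each. The other 7 genes lay between -0.09 and 0.11.

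The other genes of the same pathways were taken from a list of 42, of which 40 were tested, and EHMT2 and MORC1 had too few counts. In NaiveCult WT against Primed WT 15 were higher and 19 lower, and in PXGL WT against Primed WT 21 were higher and 12 lower. These were 85.0% and 82.5% of the 40, beside 84.6% and 88.7% of all genes tested. MORC4, a MORC-family ATPase, was the most changed in both, with log2 fold changes of 3.44 (SE 0.0858) and 2.95 (SE 0.0617). In NaiveCult WT 10 of the 40 passed the fold threshold, 5 higher and 5 lower, beside 49.4% of all genes, and the 6 most changed are named. Besides MORC4, these were ZNF644 (-1.67), a partner of the G9a and GLP methyltransferases, and KDM4D (-1.56), an H3K9 demethylase. The others were the remodeller HELLS (-1.55), MORC3 (1.46) and the TRIM28 relative TRIM24 (-1.32). In PXGL WT the largest were KDM4D (-2.29), WIZ (2.003), which tethers the G9a complex to DNA, UHRF1 (1.91), which binds H3K9me3 and hemimethylated DNA, CDYL (-1.81) and the H4K20 methyltransferase KMT5C (1.51). All of these had an edgeR adjusted p of 8.9e-06 or less.

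PXGL WT differed from NaiveCult WT in 34 of the 40 (85.0%, beside 76.8% of all genes), with 22 higher and 12 lower. WIZ (2.87), SUV39H1 (1.39), ADNP (1.34) and UHRF1 (1.04) were higher and DAXX (-1.01) lower by more than 1, with edgeR adjusted p of 5.0e-05 or less. DAXX was at only 3.42 CPM in PXGL WT and 7.18 CPM in NaiveCult WT. It lies in the region of chromosome 6, described below with ZFP57, where most genes have few counts, so its level is uncertain. In the perturbations only MORC4 exceeded this size, after doxycycline (1.10, SE 0.0644 and edgeR adjusted p = 1.9e-07). There 7 of the 40 were higher and 8 lower, in XIST KO 7 and 4, in siSPEN1 9 and 5, in siSPEN2 13 and 5, and in XACT KO 0 and 0. The shares passing were 37.5% after doxycycline, 27.5% in XIST KO, 35% in siSPEN1 and 45.0% in siSPEN2, beside 31.6%, 25.9%, 43.7% and 41.2% of all genes. With an unadjusted edgeR p under 0.05 there were 9 of 40 in XACT KO, beside 2992 of the 16472 genes tested. DESeq2 called 3 of the 40 there, with its share over all genes not counted.

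ZFP57 (ENSG00000204644.10, chromosome 6, 29672483 to 29681155, minus strand), which protects imprinted loci, is listed at 0 in 13 of the 30 libraries and at 4 counts or fewer in the others, 29 counts in all. A count of 0 allows up to 0.0457 to 0.0962 CPM, depending on the library, as far as counting error goes. Its level cannot be read as expression, because its surroundings are nearly empty in these tables. Of 190 protein-coding genes that start between 28 and 34 megabases on chromosome 6, a window that spans the major histocompatibility complex and was set after these values were seen, 145 (76.3%) had a mean under 1 CPM and 64 had no count in any library. In flanks of the same width 37 of 158 (23.4%) were under 1 CPM. The gene content differs, since the flanks hold many histone genes, such as H1-5 at 731 CPM. The window holds many olfactory receptor genes, such as OR2W1 at 0 CPM. The part of gene content in these shares was not tested. RPS18, a ribosomal protein gene that every cell uses, had 6 counts over all libraries, and DDX39B, VARS1 and ABCF1 had 0. Of 18 windows of 100 bases laid end to end along the ZFP57 exons, 18 also occur exactly in alternate contigs of chromosome 6 in the hg38 copy used here, in 7 contigs, whereas 0 windows of the other 9 genes occur in alternate contigs of their chromosomes. Alignments under a mapping quality of 10 were removed by the authors, with the contigs of their index not given in the sources used here. The part of these facts in the counts of ZFP57 was not tested, and no difference in ZFP57 between groups is read here. EHMT2 (5 counts in all), DAXX and the pluripotency gene POU5F1 lie in the same region.

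**Figure D4:**
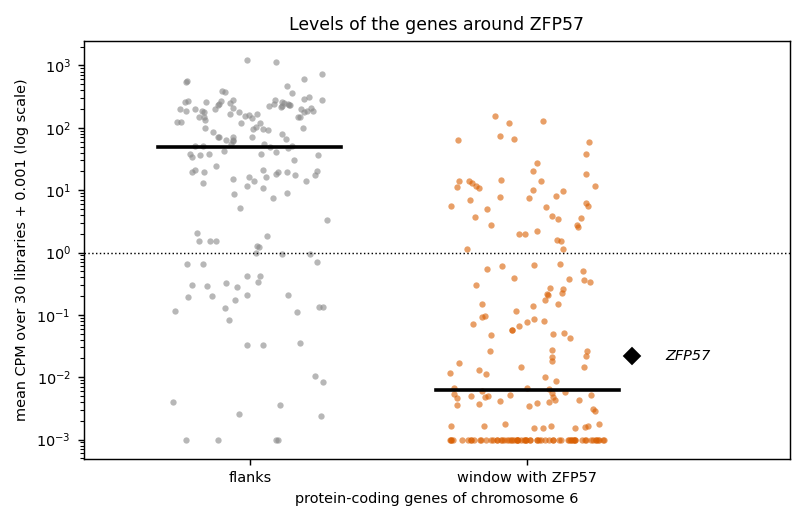
Mean CPM over the 30 libraries, plus 0.001, on a log axis, for protein-coding genes of chromosome 6 in the window that holds ZFP57 and in the flanks of the same width, with 1 point per gene and the median as a bar. In the window 145 of 190 genes lie under the dotted line at 1 CPM and in the flanks 37 of 158, and ZFP57 (diamond) is at 0.0205 CPM.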

How the data were processed

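RNA-seq of 30 H9 libraries was analysed. The authors deposited, for each library, raw counts of reads per gene, neither normalized nor pooled. Per their methods, reads were trimmed with Trim Galore 0.6.5, mapped with Bowtie2 to hg38 and mm10, deduplicated with Picard 2.23.5, filtered at a mapping quality of 10, cleared of mouse feeder reads with XenofilteR and counted over exons with HTSeq 0.13.5, reverse-stranded. Reads from near-identical copies are lost or split by such a filter. SETDB1, SUV39H2, CBX3 and MORC2 share exon bases with genes on the opposite strand, which stranded counting keeps apart.

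Groups are those of the labels. The deposited counts were tested with edgeR 4.0.16 in R 4.3.3 (quasi-likelihood F-test, TMM factors, filterByExpr with a minimum count of 10 and a minimum total of 15, Benjamini-Hochberg adjustment over the 16448 to 18381 genes tested). A gene passed at an adjusted p under 0.05, and the fold threshold was a log2 fold change above 1 or below -1. Fits used the groups compared, and siScr, siSPEN1 and siSPEN2 were fitted together. Each SE is the absolute log2 fold change over the root of the F statistic. The procedure was tested on simulated data with the same spread set for all genes. This was done only for XIST KO against PXGL WT, XACT KO against NaiveCult WT and NaiveCult WT against Primed WT. The SPEN fit and the difference between XIST deletion and doxycycline were not simulated. CPM are of library totals, and log2 fold changes use TMM factors. Library totals were 31190052 to 65637976 counts. Counting error was not set beside replicate spread gene by gene. Some spreads were very small, such as an SD of 0.183 CPM at 28.0 CPM for SUV39H2 in CRISPRi UT. The limit for a count of 0 is 3 counts and covers counting error only. All pairs of replicates differed beyond sampling noise.

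Alternatives were DESeq2 1.42.0, library totals without TMM, no filter on low counts, a filter at 1 CPM in 3 libraries, all 30 libraries in 1 fit, a replicate block, each library left out and, for SPEN, only the 6 libraries compared. Same-numbered libraries of siSPEN2 and siSPEN1 deviated together (r = 0.249, 0.149 and 0.134), so their numbers were taken to pair them. With the replicate block 5 genes passed in that comparison, the same 5 as without it. One alternative, only these 6 libraries with the replicate block, was chosen after seeing the data.

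The genes and gene lists were chosen with earlier results of these data known. Of other pathway genes, those named are at most 6 per comparison with the largest change past both thresholds. Positions are GENCODE 44 on hg38. Promoter sequences are RefSeq's, on GRCh38.p14.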

Additional observations from a re-analysis of the deposited data

Results flagged for a closer look

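Results are listed here where the effects of 2 perturbations differed in a direct test. CBX5 rose more after doxycycline than with XIST deletion: the XIST KO effect minus the doxycycline effect was -0.62 on the log2 scale, and it kept its call under all 18 alternatives, between -0.63 and -0.60. Between the SPEN siRNA mixes, siSPEN2 against siSPEN1, CBX5 (log2 fold change 0.33) and SUV39H2 (0.25) were higher, and MPHOSPH8 (-0.32), CBX3 (-0.30) and TRIM28 (-0.26) were lower, each with its call kept under all 14 alternatives. The XIST KO libraries are technical replicates of 1 clone, so the test of the first difference uses technical spread in that group. The CRISPRi libraries are of separate clones, and the mixes hold different siRNAs. The part of these differences in the results was not tested.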

How the results depend on the processing

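Of 1170 values of single genes under alternatives, 1109 kept their side of the threshold, 28 lost a call, 30 gained one and 3 reversed. Of the 1109, 27 changed sign without passing in either fit, by values of at most 0.12 on the log2 scale. All 3 reversals came with library totals in place of TMM, which shift all genes: TRIM28 in NaiveCult WT against Primed WT (-0.031) and, in PXGL WT against Primed WT, SETDB1 (-0.16) and SMCHD1 (-0.19). Counts of the 9 genes passing stayed within 1.5 times, except as follows. With all 30 libraries in 1 fit they were 0 in XIST KO against PXGL WT (2 in the fit reported), 1 in CRISPRi Dox against CRISPRi UT (2) and 2 in XACT KO against NaiveCult WT (0). In the last, DESeq2, no filter on low counts and the replicate block each gave 2. Leaving out 1 library gave 1 to 2 in XIST KO against PXGL WT (1 without XIST KO library 2), 1 to 3 in CRISPRi Dox against CRISPRi UT (1 without CRISPRi UT library 2 or 3, 3 without CRISPRi Dox library 3), 0 to 1 in XACT KO against NaiveCult WT and 1 to 2 for the XIST KO effect minus the doxycycline effect. The cause of these moves was not tested. Apart from siSPEN2 against siSPEN1, the numbers share no pairing that the labels or the correlations show (the same-number correlations were -0.235 to 0.082), and the replicate block there also made SMCHD1 pass in siSPEN2 against siScr (0.13) and TRIM28 miss in NaiveCult WT against Primed WT (0.13). Of the genes chosen by symbol, ZFP57 alone had too few counts to be tested.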

Other observations

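The genes named here were chosen after their values were seen. None of the 10 genes is X-linked, but 3 of the 42 other pathway genes are. MORC4 was at 48.1, 47.4 and 49.9 CPM in PXGL WT and 86.7, 84.8 and 83.8 CPM in XIST KO, without overlap (log2 fold change 0.81, SE 0.029 and edgeR adjusted p = 7.6e-17), and it was 1.10 higher on the log2 scale after doxycycline. ATRX, a remodeller that deposits histone H3.3 in heterochromatin, was higher in XIST KO (0.48, SE 0.027 and edgeR adjusted p = 5.9e-13), after doxycycline (0.17, edgeR adjusted p = 0.020) and with siSPEN1 (0.44) and siSPEN2 (0.75), both against the same siScr libraries. SUV39H1, the paralog of SUV39H2, was higher in XIST KO (0.17, edgeR adjusted p = 0.00066), siSPEN1 (0.49) and siSPEN2 (0.37) and did not pass after doxycycline (0.15, edgeR adjusted p = 0.053). SUV39H2 was at -0.05, -0.39, -0.15 and -0.04 in the same order. The XIST KO p-values rest on technical replicates of that group. Against Primed WT, SUV39H1 was 1.02 higher in PXGL WT and 0.37 lower in NaiveCult WT on the log2 scale (log2 fold change -0.37, edgeR adjusted p = 0.0054), where SUV39H2 was lower in both.

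CBX5 and CBX3 each lie head to head with a gene of an abundant RNA-binding protein, HNRNPA1 and HNRNPA2B1. HNRNPA1 was at 542, 497 and 498 CPM in Primed WT and 366, 379 and 375 CPM in PXGL WT, a log2 fold change of -0.25 (SE 0.048 and edgeR adjusted p = 0.00057) beside -3.20 for CBX5. In NaiveCult WT against Primed WT the values were 0.08 for HNRNPA1 (edgeR adjusted p = 0.18) and -3.33 for CBX5, and after doxycycline -0.13 (edgeR adjusted p = 0.18) and 0.74. HNRNPA2B1 was higher in PXGL WT than in Primed WT (0.60, SE 0.045 and edgeR adjusted p = 2.0e-07), as was CBX3 (0.46).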
